A study of Mus musculus with 2 samples.

Results

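The genes described here encode the protein machines that move, mark and read chromatin, and they were measured in the heart of the E12.5 mouse embryo. They were the 52 genes whose symbol in the GENCODE M21 annotation was on a fixed list, out of 55536 genes in the gene tables, and the rule itself used no measured value, though the list was drawn up with earlier results of these data known. The list held 19 genes of the BAF and PBAF remodelling complexes, 7 Polycomb genes, 3 genes of H3K27 demethylases and an H3K4 methyltransferase, 5 CHD remodelling genes, 11 histone deacetylase genes and 7 DNA methylation genes. All 52 were found in both tables.

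The samples were hearts of B6NCrl mouse embryos aged 12.5 days, with male and female embryos pooled, and the labels recorded no genetic modification and no treatment. The 2 polyA plus RNA-seq libraries, replicate 2 and replicate 1, formed a single group and were each made from 10 ng of total RNA by oligo-dT priming, a low-input cDNA protocol and tagmentation, with ERCC spike-ins. The labels list the replicates as separate biosamples under 1 donor identifier, and no condition was compared. The p-values below set the difference between these libraries against counting error alone. The unit of level was the deposited TPM, transcript abundance scaled to the library's total and corrected for transcript length. A value written with ± is the mean and SD of the 2 libraries (n = 2).

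Chromatin remodellers of the BAF (SWI/SNF) family use ATP to slide or evict nucleosomes, and each complex is assembled by choosing 1 subunit from each of several paralog families. In the mouse heart, Brg1-containing BAF complexes with the cardiac subunit Baf60c are known to be needed for heart development. Polycomb complex PRC2 writes the repressive mark H3K27me3, KDM6 enzymes remove it, and KMT2D writes H3K4 methylation at enhancers. Histone deacetylases remove acetyl groups from histones and other proteins, with class IIa enzymes acting as signal-regulated partners of MEF2 in muscle. DNA methyltransferases copy or establish CpG methylation, and TET enzymes oxidise it.

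The deposited estimates summed to 32577548 counts in replicate 2 and 35520161 counts in replicate 1, and ERCC spike-ins took 3.63% of them in replicate 2 and 3.58% in replicate 1. The 52 genes held 178602 counts in replicate 2, 0.569% of the gene counts (exact 95% interval 0.566 to 0.572%), and 192428 counts in replicate 1, 0.562% (0.559 to 0.564%). These intervals cover counting error only, because PCR copies could not be removed without molecular identifiers. Heart identity was checked with marker lists. All 7 cardiomyocyte markers were detected, with a summed level of 30784 in replicate 2 and 30628 TPM in replicate 1, as were the 5 endothelial and 5 epicardial markers. The tissue also held red blood cell RNA, the 7 erythroid markers summing to 38198 and 42543 TPM in replicates 2 and 1, and 4 of 5 macrophage markers were detected. The 10 proliferation markers were all detected and summed to 1422 and 1411 TPM in replicates 2 and 1. The 8 hepatocyte markers summed to 37.7 in replicate 2 and 173 TPM in replicate 1.

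Of the 52 genes, 51 were detected, defined as at least 1 TPM in both libraries, and the exception was Actl6b, the neuronal BAF subunit. The median of the 52 mean levels was 26.6 TPM, set beside a median of 19.13 TPM over the 12468 protein-coding genes detected in these hearts. 38 of the 52 lay above that median, 44 had a mean level of at least 10 TPM and 7 of at least 100 TPM. The highest was Rbbp7 at 329 ± 8.59 TPM and the lowest of the detected genes was Dpf1 at 1.72 ± 0.0424 TPM. Because these are whole hearts, fewer cells of a type and less RNA per cell cannot be told apart in any level given here.

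**Figure D1:**
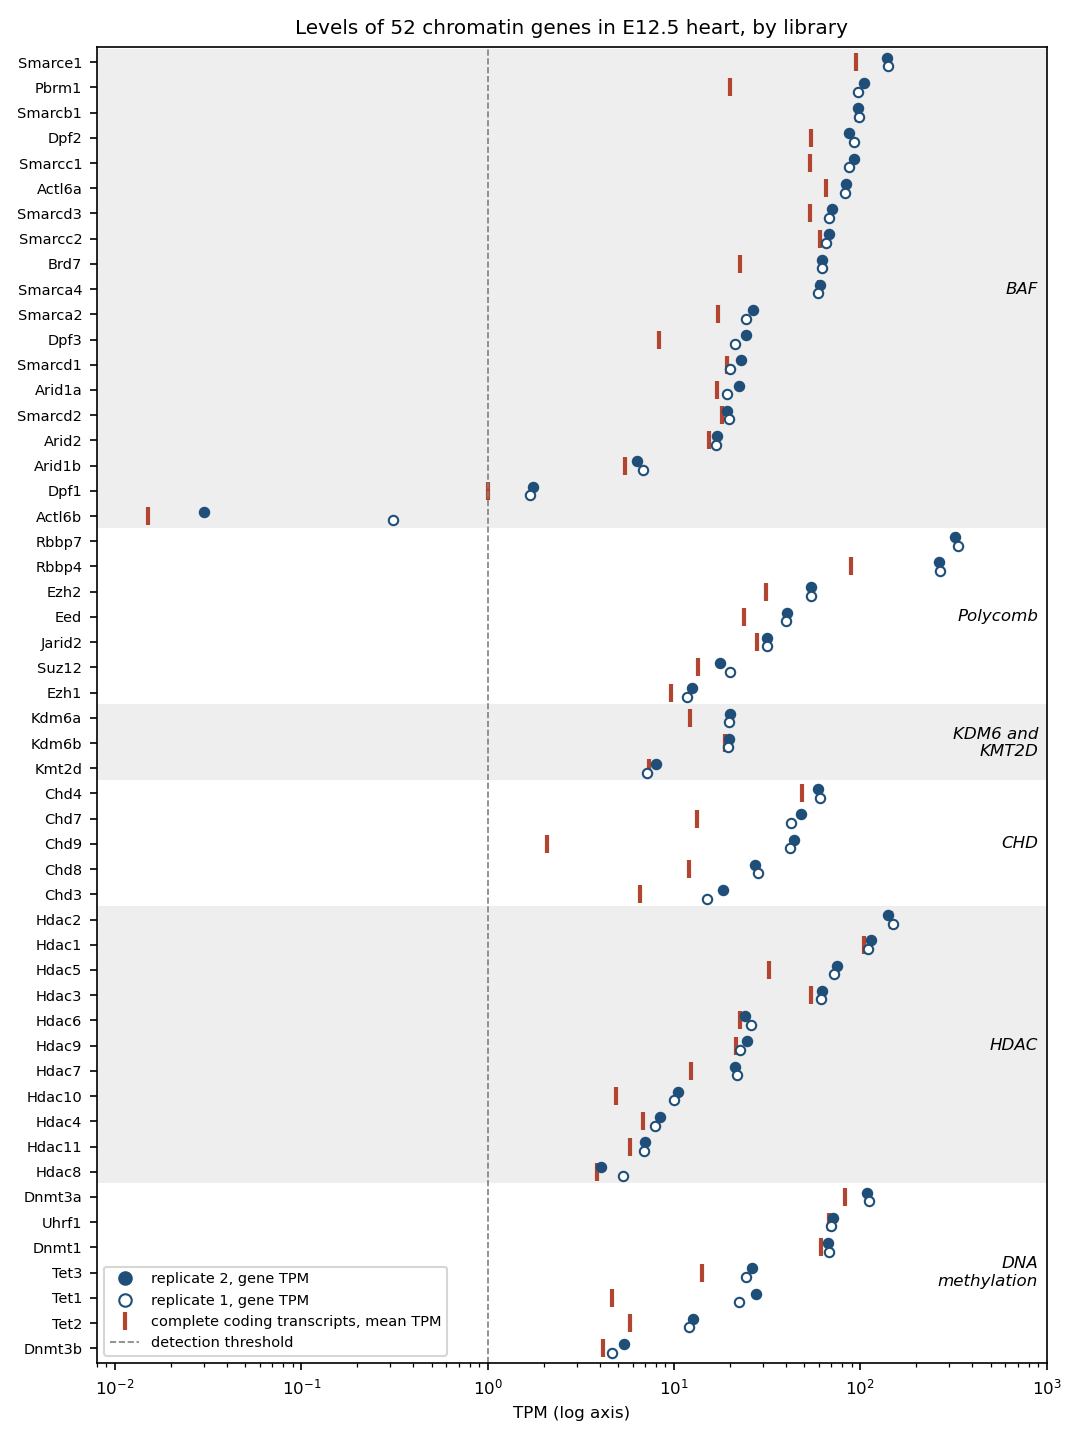
TPM (log axis) of each of the 52 genes in replicate 2 (filled circle) and replicate 1 (open circle), by class and ordered by mean; the red bar is the mean TPM of the transcripts with a complete coding sequence and the dashed line the detection threshold of 1 TPM. The libraries lie close together for every detected gene, and the red bar falls far to the left of the circles for Chd9, Pbrm1, Tet1, Rbbp4 and Chd7.

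A gene's TPM adds all its annotated transcripts, including short or non-coding ones, so the share from transcripts with a complete annotated coding sequence was followed beside it. The median share over the detected genes was 78.2%, against 87.6% over all detected protein-coding genes. It was at least 80% in 24 of the 51 and under 50% in 13. Hdac2, Rbbp7, Smarca4 and Smarcb1 were almost wholly made of complete coding transcripts, while Chd9 had 5.22% in replicate 2 and 4.54% in replicate 1. In 49 of 51 genes the same transcript led in both libraries, the exceptions being Chd4 and Smarca2, and in 41 of 51 the transcript that led in replicate 2 had a complete coding sequence. The other 10 were led by a retained intron, a processed transcript or a fragment whose annotated coding sequence is incomplete: Brd7, Chd3, Chd7, Chd9, Dpf3, Hdac7, Pbrm1, Rbbp4, Smarcc1 and Tet1. Transcript levels are model estimates from short reads, and a short transcript that shares exons with a long one can take a large TPM from few reads. The Chd9 leader, Chd9-206, is 759 bases long and took 66.3% of the gene's TPM but 26.6% of its counts in replicate 2, and 68.5% of TPM but 28.8% of counts in replicate 1. Where the ranking of paralogs depended on which transcripts were counted, both values are given below.

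**Figure D2:**
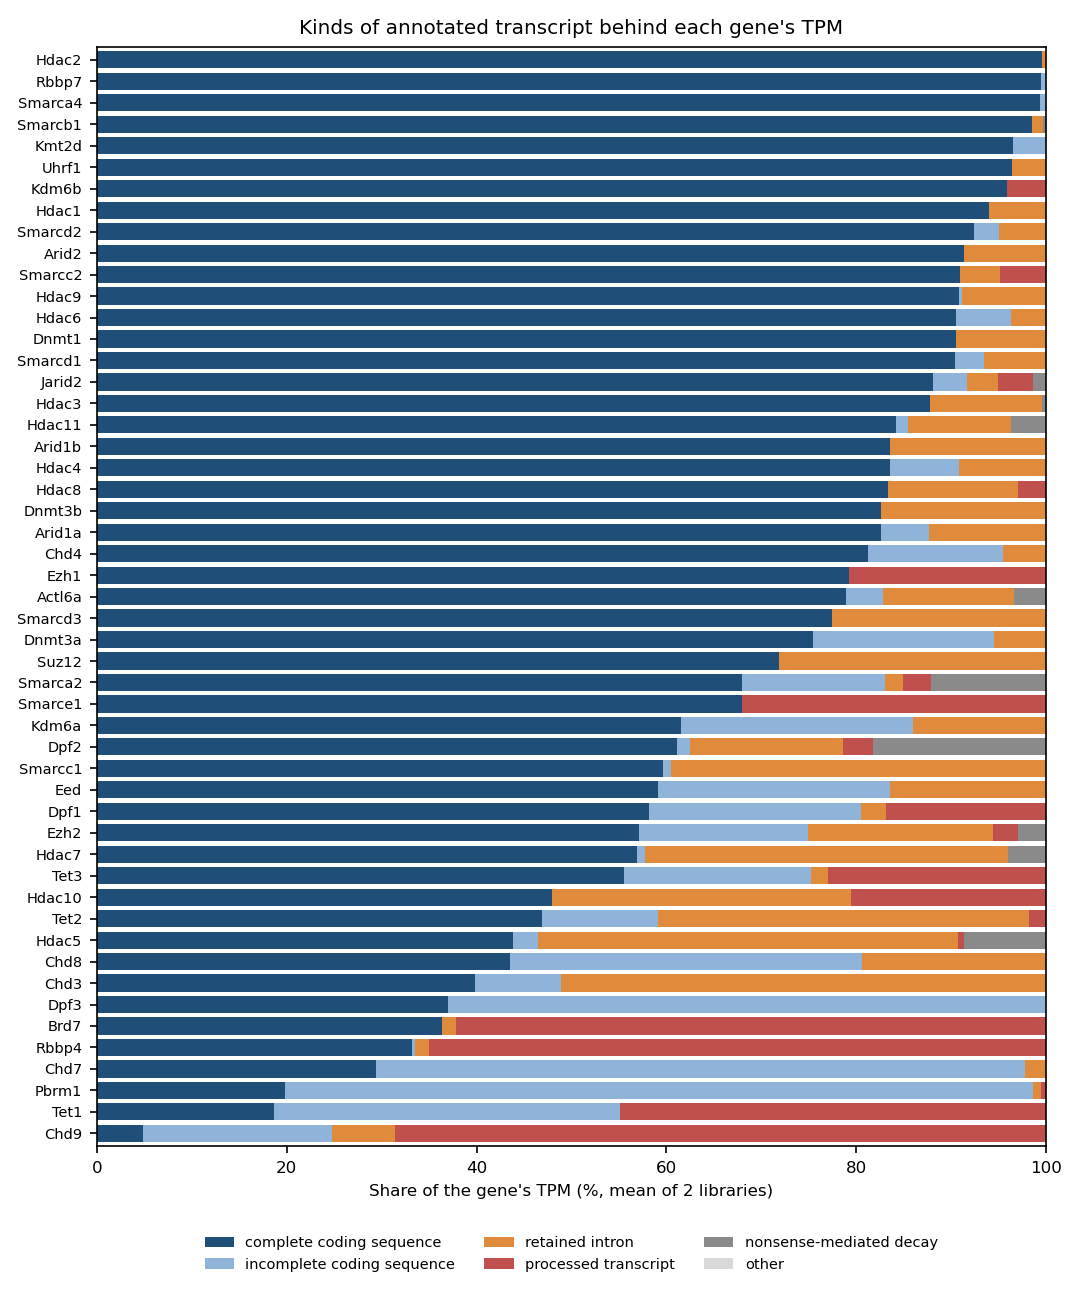
Share of each detected gene's TPM (%, mean of 2 libraries) that came from annotated transcripts with a complete coding sequence, an incomplete coding sequence, a retained intron, a processed transcript, a nonsense-mediated decay form or another kind, ordered by the first share. The dark bar shrinks from nearly the whole width for Hdac2 and Rbbp7 to a small part for Pbrm1, Tet1 and Chd9.

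In the BAF class, 18 of 19 genes were detected and the subunits shared by most complexes were among the highest. Smarca4, which encodes the ATPase Brg1 (chr9:21616169-21704230, mm10), had 61.1 in replicate 2 and 59.5 TPM in replicate 1. Its paralog Smarca2, encoding Brm (chr19:26605050-26778322), had 26.6 in replicate 2 and 24.2 TPM in replicate 1. Smarca4 held 69.7% in replicate 2 and 71.1% in replicate 1 of the ATPase TPM, and the libraries did not overlap between the genes. On the log2(TPM + 0.5) scale the ratio of Smarca4 to Smarca2 was 1.23 ± 0.07, a 2.35-fold difference. Much of the Smarca2 signal came from short transcripts that begin inside the gene and encode 236 to 278 codons. Transcripts carrying at least 80% of the longest coding sequence gave Smarca2 6.06 in replicate 2 and 6.01 TPM in replicate 1 and Smarca4 60.6 in replicate 2 and 59.3 TPM in replicate 1, a 9.25-fold ratio. Smarca4 itself was split between a form of 1613 codons, at 42.8 in replicate 2 and 40.5 TPM in replicate 1, and a form of 1617 codons, at 17.8 in replicate 2 and 18.8 TPM in replicate 1.

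Among the common core subunits, levels were high and close between libraries. Smarce1, encoding the HMG-box subunit Baf57, had 139 in replicate 2 and 142 TPM in replicate 1. Smarcb1, encoding Snf5, a core subunit that contacts the nucleosome, had 97.0 in replicate 2 and 98.8 TPM in replicate 1. Actl6a, encoding the actin-related subunit Baf53a, had 83.9 in replicate 2 and 82.5 TPM in replicate 1. The mean of each exceeded 80 TPM, with SDs of 1.93, 1.27 and 1.00 TPM. The scaffold genes Smarcc1 (Baf155), with 92.0 in replicate 2 and 87.2 TPM in replicate 1, and Smarcc2 (Baf170), with 67.7 in replicate 2 and 65.2 TPM in replicate 1, were among the higher genes of the class too. Smarcc1 was the higher of the pair by gene TPM, with a log2 ratio of 0.43 ± 0.02, but a retained-intron transcript led its own TPM. Over complete coding transcripts Smarcc1 had 55.8 in replicate 2 and 51.0 TPM in replicate 1, Smarcc2 had 60.3 in replicate 2 and 60.5 TPM in replicate 1, and the log2 ratio turned to -0.18 ± 0.09.

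Smarcb1 was made of a pair of coding forms at close levels. The form of 385 codons had 49.1 in replicate 2 and 56.9 TPM in replicate 1 and the form of 376 codons had 46.6 in replicate 2 and 40.2 TPM in replicate 1, so the order held in both libraries while the gap was wider in replicate 1. The forms differ by 27 bases, 9 codons, at the edge of an exon. The stretch of the longer form's coding sequence around them (chr10:75915164-75916829, GRCm38, minus strand, introns removed) is shown because it carries the whole coding difference, with the extra bases in capitals.
Smarcb1: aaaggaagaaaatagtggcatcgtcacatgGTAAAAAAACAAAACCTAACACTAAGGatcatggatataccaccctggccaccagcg

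Among the SMARCD (Baf60) genes, which link the complex to transcription factors, the cardiac member led. Smarcd3, encoding Baf60c, had 70.3 in replicate 2 and 67.6 TPM in replicate 1. Smarcd1 had 22.8 in replicate 2 and 19.9 TPM in replicate 1, and Smarcd2 had 19.2 in replicate 2 and 19.8 TPM in replicate 1. Smarcd3 held 62.6% in replicate 2 and 63.0% in replicate 1 of the summed SMARCD TPM and stood 3.47-fold above Smarcd2. The log2 ratio of Smarcd1 to Smarcd3 was -1.67 ± 0.09. Smarcd1 and Smarcd2 were not separated beyond their spread, with a log2 ratio of 0.13 ± 0.17. Part of the Smarcd3 annotation overlaps Chpf2 on the opposite strand, 2466 of its 5120 exonic bases. Chpf2 was listed at 17.7 in replicate 2 and 15.8 TPM in replicate 1, and whether counting used strand is not given in the sources used here, so reads from the shared bases cannot be assigned with certainty.

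The subunits that define the BAF and PBAF versions of the complex were both present. Arid1a, encoding the BAF subunit Baf250a, had 22.3 in replicate 2 and 19.2 TPM in replicate 1, and its paralog Arid1b had 6.30 in replicate 2 and 6.84 TPM in replicate 1, a 3.00-fold difference in favour of Arid1a. Of the PBAF subunits, Arid2 (Baf200) had 17.1 in replicate 2 and 16.9 TPM in replicate 1, with a log2 ratio of -0.28 ± 0.14 to Arid1a, whose libraries (22.3 and 19.2 TPM) lay above both Arid2 values. Pbrm1, encoding the bromodomain protein Baf180, had 104 in replicate 2 and 97.1 TPM in replicate 1, and Brd7, another bromodomain subunit, had 62.5 in replicate 2 and 62.2 TPM in replicate 1. Most of the Pbrm1 and Brd7 TPM came from transcripts without a complete coding sequence. Counting complete coding transcripts alone, Pbrm1 had 19.9 in replicate 2 and 19.9 TPM in replicate 1 and Brd7 had 23.2 in replicate 2 and 22.2 TPM in replicate 1, close to Arid2 at 15.5 in replicate 2 and 15.5 TPM in replicate 1.

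The DPF (Baf45) and ACTL6 (Baf53) families are known for a subunit switch in neurons. Here Dpf2 held most of the DPF TPM and Actl6a nearly all of the ACTL6 TPM, while Dpf3 held 21.6% in replicate 2 and 18.3% in replicate 1 of the DPF TPM. Dpf2 (Baf45d), the broadly expressed reader of acylated histone H3, had 86.7 in replicate 2 and 92.7 TPM in replicate 1. Dpf3 (Baf45c), known from zebrafish and mouse heart and skeletal muscle, had 24.3 in replicate 2 and 21.2 TPM in replicate 1. Dpf1 (Baf45b), a neuronal subunit, had 1.75 in replicate 2 and 1.69 TPM in replicate 1, so that Dpf2 was 40.6-fold above it on the log2(TPM + 0.5) scale. The order Dpf2, Dpf3, Dpf1 held in both libraries, although over complete coding transcripts Dpf3 had 6.97 in replicate 2 and 9.61 TPM in replicate 1, lower in replicate 2.

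Actl6b was the single gene below detection. It had 1 count and 0.03 TPM in replicate 2 (exact 95% interval 0.00076 to 0.167 TPM) and 3 counts and 0.31 TPM in replicate 1 (0.0639 to 0.906 TPM). The ratio of Actl6a to Actl6b was 2797 in replicate 2, with a counting interval of 502 to 110489, and 266 in replicate 1, with an interval of 91.1 to 1290. Of 9 neuronal markers, 4 were detected, the 9 having a summed level of 14.4 in replicate 2 and 16.9 TPM in replicate 1, and their part in the low Dpf1 and Actl6b levels was not tested. The promoter windows of the pair, from 250 bases before to 50 after the RefSeq start (GRCm38.p6, the mm10 build), are written 5′ to 3′ and shown because they are the switch pair with the widest difference in level, with each CpG in capitals. The Actl6a window (chr3:32708296-32708595, plus strand) holds 21 CpG and the Actl6b window (chr5:137553296-137553595, plus strand) holds 23, so the gene near 0 and the gene at more than 80 TPM have similar numbers.
Actl6a: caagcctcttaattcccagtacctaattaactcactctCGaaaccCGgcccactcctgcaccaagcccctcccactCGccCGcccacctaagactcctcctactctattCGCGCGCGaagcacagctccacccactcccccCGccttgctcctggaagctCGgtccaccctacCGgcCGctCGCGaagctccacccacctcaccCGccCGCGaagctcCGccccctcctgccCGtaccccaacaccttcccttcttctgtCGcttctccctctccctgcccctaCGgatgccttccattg
Actl6b: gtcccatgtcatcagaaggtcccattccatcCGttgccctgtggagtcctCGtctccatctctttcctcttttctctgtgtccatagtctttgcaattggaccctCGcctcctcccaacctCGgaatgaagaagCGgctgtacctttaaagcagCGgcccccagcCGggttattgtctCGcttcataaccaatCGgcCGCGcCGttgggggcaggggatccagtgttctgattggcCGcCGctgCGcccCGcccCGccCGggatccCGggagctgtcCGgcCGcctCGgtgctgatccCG

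All 7 Polycomb genes were detected. The histone-binding subunits Rbbp7, with 323 in replicate 2 and 335 TPM in replicate 1, and Rbbp4, with 266 in replicate 2 and 268 TPM in replicate 1, were the highest of the class and of all 52 genes. These WD40 proteins are shared with NuRD, Sin3 and other complexes, so their level does not belong to PRC2 alone. Rbbp4 was listed at 0.813 of the Rbbp7 level. A processed transcript of 722 bases carried 65.6% of the Rbbp4 TPM in replicate 2 and 64.5% in replicate 1, and complete coding transcripts gave 86.7 in replicate 2 and 90.6 TPM in replicate 1, 0.272 of Rbbp7.

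The catalytic choice in PRC2 was for Ezh2. Ezh2 (chr6:47530139-47595341), the H3K27 methyltransferase typical of dividing cells, had 54.5 in replicate 2 and 54.6 TPM in replicate 1. Ezh1 (chr11:101191115-101226463), its paralog typical of non-dividing tissue, had 12.6 in replicate 2 and 11.7 TPM in replicate 1. Ezh2 held 81.3% in replicate 2 and 82.4% in replicate 1 of their summed TPM, 4.36-fold over Ezh1, and still 3.13-fold over complete coding transcripts. Eed, the H3K27me3-reading subunit, had 40.4 in replicate 2 and 40.2 TPM in replicate 1. Suz12, the structural subunit that PRC2 needs for activity, was lower, with 17.6 in replicate 2 and 19.9 TPM in replicate 1. Jarid2, an accessory subunit that helps recruit PRC2 and was first described in mouse embryos with heart and neural defects, had 31.6 in replicate 2 and 31.8 TPM in replicate 1. By gene TPM the order from Ezh2 through Eed, Jarid2 and Suz12 to Ezh1 was the same in both libraries, with no overlap between neighbours. Eed and Jarid2 changed places over complete coding transcripts. There Jarid2 had 27.85 in replicate 2 and 28.01 TPM in replicate 1, and Eed had 24.8 in replicate 2 and 22.8 TPM in replicate 1. Under the M4 annotation Jarid2 was also the higher, with 32.97 and 33.08 TPM against 30.88 and 28.97 TPM for Eed in replicates 2 and 1.

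Ezh2 was also split between coding forms. The full form of 746 codons had 22.0 in replicate 2 and 19.5 TPM in replicate 1 and a form of 704 codons had 8.36 in replicate 2 and 8.24 TPM in replicate 1. The shorter form lacks 42 codons, 126 bases, in 1 exon, and its transcript also begins at a different annotated start. That exon is printed in its coding context (chr6:47540826-47542395, GRCm38, minus strand, introns removed), with the skipped bases in capitals. It is shown because it is the whole difference in coding sequence between the 2 leading coding forms.
Ezh2: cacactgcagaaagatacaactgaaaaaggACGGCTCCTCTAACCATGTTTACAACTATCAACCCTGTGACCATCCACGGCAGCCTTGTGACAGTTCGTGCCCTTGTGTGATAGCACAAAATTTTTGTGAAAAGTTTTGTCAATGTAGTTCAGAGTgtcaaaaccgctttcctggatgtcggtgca

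The H3K27 demethylase genes stood level by gene TPM. Kdm6a (Utx), an X-linked gene, had 19.9 in replicate 2 and 19.7 TPM in replicate 1, and Kdm6b (Jmjd3) had 19.8 in replicate 2 and 19.5 TPM in replicate 1, with overlapping values and a log2 ratio of 0.01 ± 0.01. Over complete coding transcripts Kdm6a had 12.2 in replicate 2 and 12.2 TPM in replicate 1 and Kdm6b had 18.6 in replicate 2 and 19.06 TPM in replicate 1, so that Kdm6b was the higher of the pair, at a log2 ratio of -0.61 ± 0.02. Kmt2d, encoding the enhancer H3K4 methyltransferase that works in 1 complex with Utx, had 7.99 in replicate 2 and 7.18 TPM in replicate 1, the lowest of the 3.

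All 5 CHD genes were detected, and Chd4 led. Chd4 (chr6:125095981-125130591), the Mi-2β ATPase of the NuRD complex, had 59.4 in replicate 2 and 60.5 TPM in replicate 1. Its NuRD paralog Chd3 (Mi-2α) had 18.3 in replicate 2 and 15.02 TPM in replicate 1. Chd4 held 76.4% in replicate 2 and 80.1% in replicate 1 of their sum, 3.54-fold over Chd3, and 6.94-fold over complete coding transcripts. A retained-intron transcript led Chd3. Chd7, the remodeller mutated in human CHARGE syndrome, had 48.2 in replicate 2 and 42.7 TPM in replicate 1. Chd8, mutated in some people with autism, had 27.3 in replicate 2 and 28.2 TPM in replicate 1, and Chd9 had 43.8 in replicate 2 and 41.9 TPM in replicate 1.

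The order within the Chd7, Chd8 and Chd9 group depended on the transcripts counted. By gene TPM, Chd7 over Chd9 was 0.08 ± 0.08 on the log2 scale, with overlapping libraries, and Chd8 over Chd9 was -0.62 ± 0.08. Complete coding transcripts gave Chd7 13.7 in replicate 2 and 12.9 TPM in replicate 1, Chd8 12.3 in replicate 2 and 11.8 TPM in replicate 1 and Chd9 2.29 in replicate 2 and 1.90 TPM in replicate 1. On that count Chd9 was the lowest, and Chd8 was 4.86-fold above it. Under the older M4 annotation the whole Chd9 gene was listed at 4.11 in replicate 2 and 3.70 TPM in replicate 1. Chd7 transcripts with at least 80% of the longest coding sequence had 6.01 in replicate 2 and 5.40 TPM in replicate 1, below Chd8 at 12.3 in replicate 2 and 11.8 TPM in replicate 1, and a Chd7 form of 941 codons made up the remainder of its complete coding level.

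All 11 histone deacetylase genes were detected, with the class I genes Hdac2 and Hdac1 the highest and the class I gene Hdac8 the lowest. Hdac2 (chr10:36974544-37001889) had 141 in replicate 2 and 151 TPM in replicate 1 and Hdac1 (chr4:129516104-129542713) had 114 in replicate 2 and 109.6 TPM in replicate 1. These nuclear enzymes work together in the NuRD, Sin3 and CoREST complexes, and mice whose heart muscle lacks both are known to die soon after birth. Hdac2 was the higher in both libraries, with a log2 ratio of Hdac1 to Hdac2 of -0.39 ± 0.10. Hdac3, the deacetylase of the NCoR and SMRT complexes, had 62.1 in replicate 2 and 61.6 TPM in replicate 1. Hdac8, the deacetylase of cohesin subunit SMC3, had 4.07 in replicate 2 and 5.32 TPM in replicate 1, and Hdac3 over Hdac8 was 12.1-fold. Nearly all of the Hdac2 TPM, 99.6% in replicate 2 and 99.5% in replicate 1, was complete coding sequence.

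Class IIa was led by Hdac5. Hdac5, which with Hdac9 restrains cardiac growth in mice, had 74.7 in replicate 2 and 72.2 TPM in replicate 1, against Hdac9 with 24.7 in replicate 2 and 22.6 TPM in replicate 1. Hdac7, known for its role in endothelial cells, had 21.3 in replicate 2 and 21.8 TPM in replicate 1. Hdac4, known in mice for restraining the growth of cartilage cells, was the lowest, with 8.39 in replicate 2 and 7.88 TPM in replicate 1. Hdac5 held 57.8% in replicate 2 and 58.0% in replicate 1 of the class IIa TPM, and the pair Hdac4 over Hdac5 gave a log2 ratio of -3.10 ± 0.03. Hdac5 over Hdac7 was 1.75 ± 0.06 and Hdac7 over Hdac4 was 1.35 ± 0.08, while Hdac7 over Hdac9 was near 0 at -0.13 ± 0.11. For Hdac5, 43.6% of the TPM in replicate 2 and 44.9% in replicate 1 lay in retained-intron transcripts. Its complete coding level was 34.3 in replicate 2 and 30.1 TPM in replicate 1, nearer to that of Hdac9 at 22.2 in replicate 2 and 20.8 TPM in replicate 1.

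Hdac9 was expressed almost wholly as its short forms. A form of 588 codons had 13.3 in replicate 2 and 11.3 TPM in replicate 1 and a form of 560 codons had 6.44 in replicate 2 and 7.08 TPM in replicate 1. Forms with at least 80% of the longest coding sequence, 1067 codons, had 1.00 in replicate 2 and 1.33 TPM in replicate 1. Short Hdac9 proteins without the deacetylase domain are known as MITR or HDRP and repress MEF2 through recruited partners. Counting near-full forms alone, Hdac5 was 19.7-fold above Hdac9, Hdac7 over Hdac9 turned to a log2 ratio of 2.95 ± 0.10 and Hdac4 over Hdac9 to 2.14 ± 0.29, against -1.49 ± 0.03 by gene TPM.

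The remaining deacetylases were of low to middle level. Hdac6, the cytoplasmic tubulin deacetylase of class IIb, had 24.1 in replicate 2 and 25.8 TPM in replicate 1, and Hdac10, a polyamine deacetylase, had 10.4 in replicate 2 and 9.95 TPM in replicate 1, a 2.37-fold difference. Hdac11, the only class IV member, had 7.01 in replicate 2 and 6.87 TPM in replicate 1. Hdac6 and Hdac9 were neighbours in the order of levels whose library values overlapped, and the same held for Chd7 and Chd9, Kdm6a and Kdm6b, Tet3 and Tet1, and 7 neighbouring pairs of BAF genes. All other neighbours within a class had separate values.

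All 7 DNA methylation genes were detected, with the de novo enzyme Dnmt3a on top. Dnmt3a (chr12:3806007-3914443) had 109 in replicate 2 and 111 TPM in replicate 1. Dnmt1 (chr9:20907209-20959888), which copies methylation after replication, had 67.5 in replicate 2 and 67.9 TPM in replicate 1, and Uhrf1, which brings Dnmt1 to hemimethylated CpG, had 71.0 in replicate 2 and 69.2 TPM in replicate 1. Dnmt3b (chr2:153649450-153687730), the other de novo enzyme, had 5.40 in replicate 2 and 4.65 TPM in replicate 1. Dnmt3a held 95.3% in replicate 2 and 96.0% in replicate 1 of the DNMT3 TPM and was 20.0-fold above Dnmt3b. Dnmt1 over Dnmt3a gave a log2 ratio of -0.69 ± 0.01.

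Dnmt3a was read from a pair of start regions. The 6 transcripts that begin at the upstream start held 48.7% in replicate 2 and 51.9% in replicate 1 of the gene's TPM, and the 2 that begin at an internal start held 48.2% in replicate 2 and 45.1% in replicate 1. The upstream start gives the full enzyme of 908 codons, at 32.7 in replicate 2 and 30.3 TPM in replicate 1, and the internal start gives a form of 689 codons, at 52.3 in replicate 2 and 50.01 TPM in replicate 1. The shorter form matches the one known as Dnmt3a2, which lacks the N-terminal part and is best known from mouse embryonic stem and germ cells. In both libraries the short form was the higher of the 2 coding forms by TPM. The gene's leading transcript, Dnmt3a-205, encodes the short form and is 2328 bases long. It took 42.4% of the gene's TPM but 21.7% of its counts in replicate 2. In replicate 1 it took 39.7% of TPM but 21.8% of counts. Against the full form alone, Dnmt1 was the higher enzyme gene, at a log2 ratio of 0.95 ± 0.05, and Dnmt3a over Dnmt3b was 6.90-fold. The promoter windows of both starts are given because the 2 starts share the gene's output, with each CpG in capitals. The upstream window (chr12:3806730-3807029, plus strand) holds 46 CpG and the internal window (chr12:3891494-3891793, plus strand) holds 18.
Dnmt3a upstream start: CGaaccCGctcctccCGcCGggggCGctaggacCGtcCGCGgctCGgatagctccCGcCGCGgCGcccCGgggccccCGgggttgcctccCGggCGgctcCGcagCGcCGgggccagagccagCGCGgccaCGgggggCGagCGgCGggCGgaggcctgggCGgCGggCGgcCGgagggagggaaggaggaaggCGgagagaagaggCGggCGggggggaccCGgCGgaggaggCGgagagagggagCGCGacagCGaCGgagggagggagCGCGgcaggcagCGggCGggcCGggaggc
Dnmt3a internal start: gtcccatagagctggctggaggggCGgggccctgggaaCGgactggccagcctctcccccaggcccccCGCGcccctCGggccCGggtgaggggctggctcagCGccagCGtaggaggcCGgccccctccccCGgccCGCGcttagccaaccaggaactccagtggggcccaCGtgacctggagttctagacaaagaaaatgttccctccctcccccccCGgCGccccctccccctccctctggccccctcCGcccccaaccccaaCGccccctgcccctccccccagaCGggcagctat

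Dnmt1 was also divided between start regions. The form of 1620 codons had 42.5 in replicate 2 and 42.0 TPM in replicate 1, and a form of 1501 codons whose first exon lies upstream had 18.5 in replicate 2 and 17.3 TPM in replicate 1. In mice an upstream first exon of Dnmt1 is known to serve oocytes and to give a shorter protein. The estimate for the shorter form rests on 156 bases found in no other Dnmt1 transcript, and that for the longer form on 134 bases. The deposited posterior SD of the shorter form's count was 175 of 2126 counts in replicate 2 and 207 of 2193 counts in replicate 1. The germline genes on a list of 15 were all below detection, with Ddx4 the highest at 1.14 in replicate 2 and 0.89 TPM in replicate 1. The windows of the 2 Dnmt1 starts are printed for comparison with those of Dnmt3a, with each CpG in capitals. The upstream window (chr9:20959839-20960138, minus strand) holds 2 CpG and the main window (chr9:20952930-20953229, minus strand) holds 12. A further RefSeq start of Dnmt1 lies further into the gene, and its window (not printed) holds 33 CpG.
Dnmt1 upstream start: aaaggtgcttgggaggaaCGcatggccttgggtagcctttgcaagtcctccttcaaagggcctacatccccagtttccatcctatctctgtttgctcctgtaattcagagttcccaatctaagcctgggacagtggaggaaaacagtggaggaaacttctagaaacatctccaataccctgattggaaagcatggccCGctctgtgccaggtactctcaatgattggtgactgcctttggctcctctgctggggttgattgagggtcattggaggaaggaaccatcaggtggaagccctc
Dnmt1 main start: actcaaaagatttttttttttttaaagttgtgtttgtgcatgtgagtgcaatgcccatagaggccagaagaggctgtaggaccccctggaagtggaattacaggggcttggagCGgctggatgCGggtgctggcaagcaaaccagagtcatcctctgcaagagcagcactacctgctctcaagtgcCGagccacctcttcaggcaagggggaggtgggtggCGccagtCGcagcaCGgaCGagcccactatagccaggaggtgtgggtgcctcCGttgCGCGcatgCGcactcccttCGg

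Dnmt3b was low and mostly of a shortened form. The form of 776 codons had 2.83 in replicate 2 and 2.46 TPM in replicate 1, while the forms of 860 codons had 1.52 in replicate 2 and 1.10 TPM in replicate 1. The shorter coding sequence lacks coding exon 9 of the longer form, 60 bases, 3 bases of coding exon 15, and 63 codons in the skipped coding exons 20 and 21, a stretch by which the catalytically inactive form Dnmt3b3 is known to differ. Those bases in the coding context (chr2:153678527-153686287, GRCm38, plus strand, introns removed) are printed because they lie in the catalytic part of the enzyme, with the skipped bases in capitals.
Dnmt3b: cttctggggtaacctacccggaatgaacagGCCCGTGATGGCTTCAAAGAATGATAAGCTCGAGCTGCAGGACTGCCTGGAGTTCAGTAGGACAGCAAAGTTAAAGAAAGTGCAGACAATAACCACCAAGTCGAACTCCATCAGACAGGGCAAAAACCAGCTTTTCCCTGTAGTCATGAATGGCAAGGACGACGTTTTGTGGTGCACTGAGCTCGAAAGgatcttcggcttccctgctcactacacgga

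The TET dioxygenases, which oxidise methylated cytosine, were of middle level. Tet3 had 26.1 in replicate 2 and 24.5 TPM in replicate 1, Tet1 had 27.6 in replicate 2 and 22.5 TPM in replicate 1 and Tet2 had 12.7 in replicate 2 and 11.98 TPM in replicate 1. By gene TPM the libraries disagreed on the order of Tet3 and Tet1, at a log2 ratio of 0.02 ± 0.14, and this was the only pair of 32 for which they did. Tet1 over Tet2 was 0.98 ± 0.15 and Tet3 over Tet2 was 1.01 ± 0.01. Under the M4 annotation Tet2 was listed at 6.34 in replicate 2 and 6.39 TPM in replicate 1, and these log2 ratios were 1.69 ± 0.21 and 1.91 ± 0.08. A processed transcript carried 48.0% of the Tet1 TPM in replicate 2 and 41.9% in replicate 1. Over complete coding transcripts Tet3 led with 15.1 in replicate 2 and 13.1 TPM in replicate 1, followed by Tet2 with 5.75 in replicate 2 and 5.80 TPM in replicate 1 and Tet1 with 4.86 in replicate 2 and 4.42 TPM in replicate 1. Tet3 was divided between a form of 1668 codons, at 9.21 in replicate 2 and 7.74 TPM in replicate 1, and a longer form of 1803 codons, at 5.85 in replicate 2 and 5.38 TPM in replicate 1.

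Across 32 paralog pairs the gene named first was the higher in both libraries in 22 and the gene named second in 9. In 19 pairs the mean log2 ratio was at least 1 in size, and in the other 13 it was smaller. The order within each pair follows from the list and not from the data, so these counts only describe how the choices fell. By complete coding transcripts the first gene was higher in both libraries in 21 pairs, and the mean changed sign in 4, namely Smarcc1 over Smarcc2, Kdm6a over Kdm6b, Chd8 over Chd9 and Tet1 over Tet2. The choices that held under all 3 ways of counting transcripts, each with a log2 ratio of at least 1, included Smarca4, Smarcd3, Arid1a, Dpf2, Actl6a, Ezh2, Chd4, Hdac3, Hdac6 and Dnmt3a over Smarca2, Smarcd2, Arid1b, Dpf1, Actl6b, Ezh1, Chd3, Hdac8, Hdac10 and Dnmt3b.

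**Figure D3:**
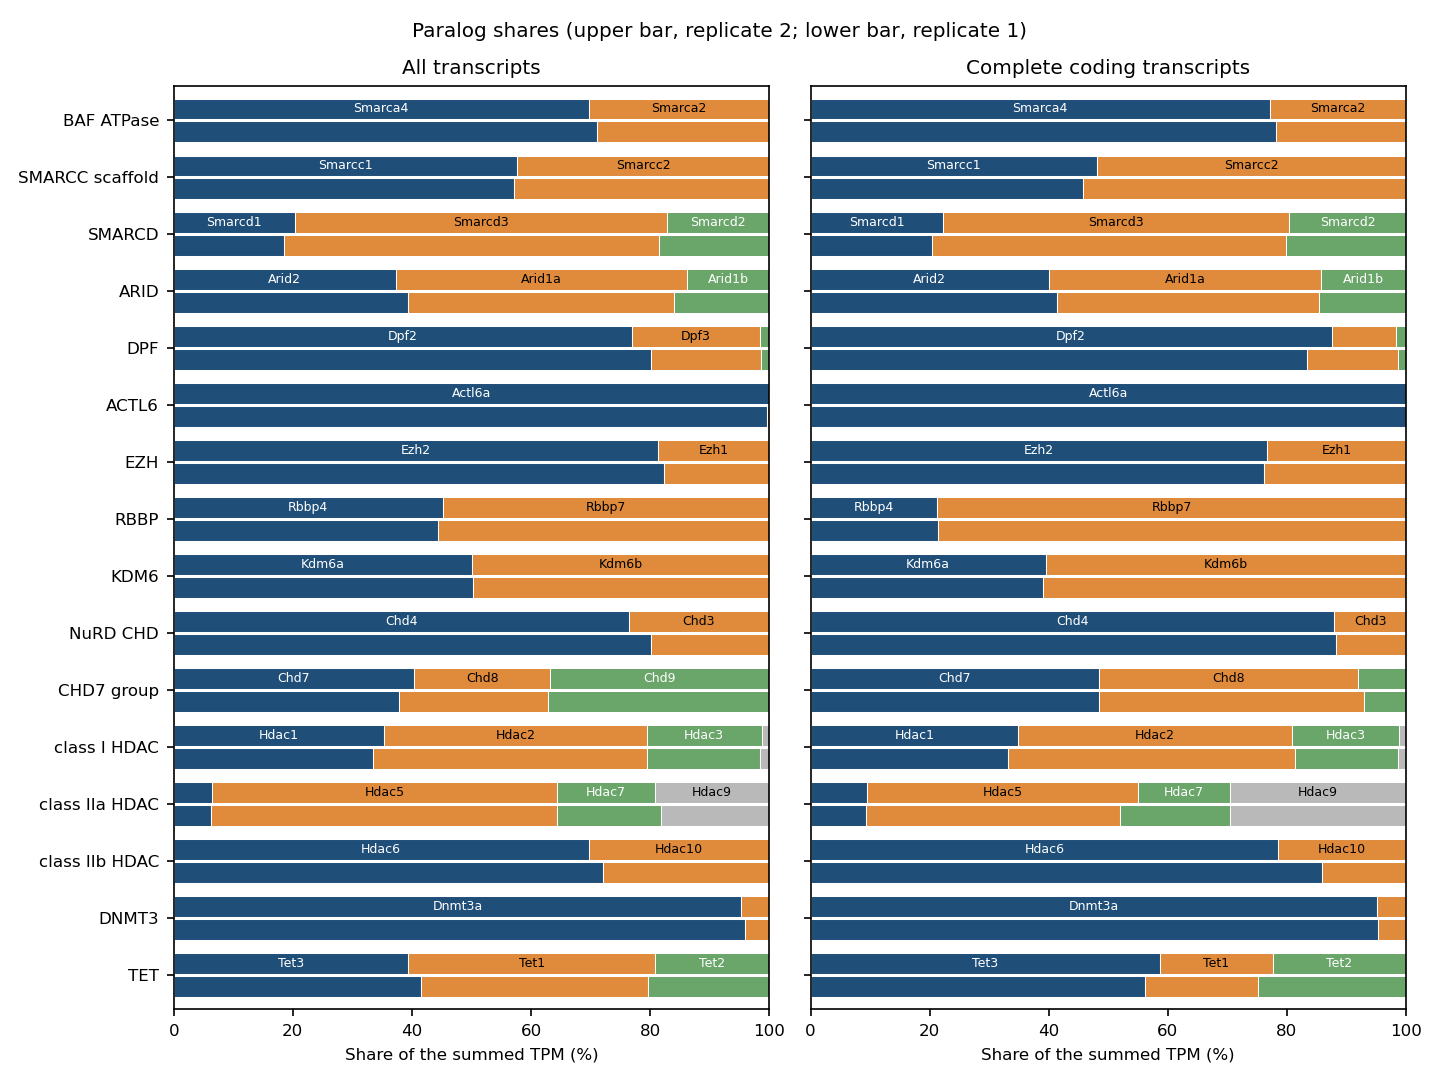
Share (%) of each paralog in the summed TPM of its family, over all transcripts at left and over transcripts with a complete coding sequence at right, with replicate 2 as the upper and replicate 1 as the lower bar of each pair; narrow parts without a name are Dpf1, Actl6b, Hdac8, Hdac4 and Dnmt3b, and at right also Dpf3 and Chd9. Smarca4, Dpf2, Actl6a, Ezh2, Chd4 and Dnmt3a fill most of their bars in both panels, while the Chd9 part nearly closes and the Tet3 part widens at right.

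**Figure D4:**
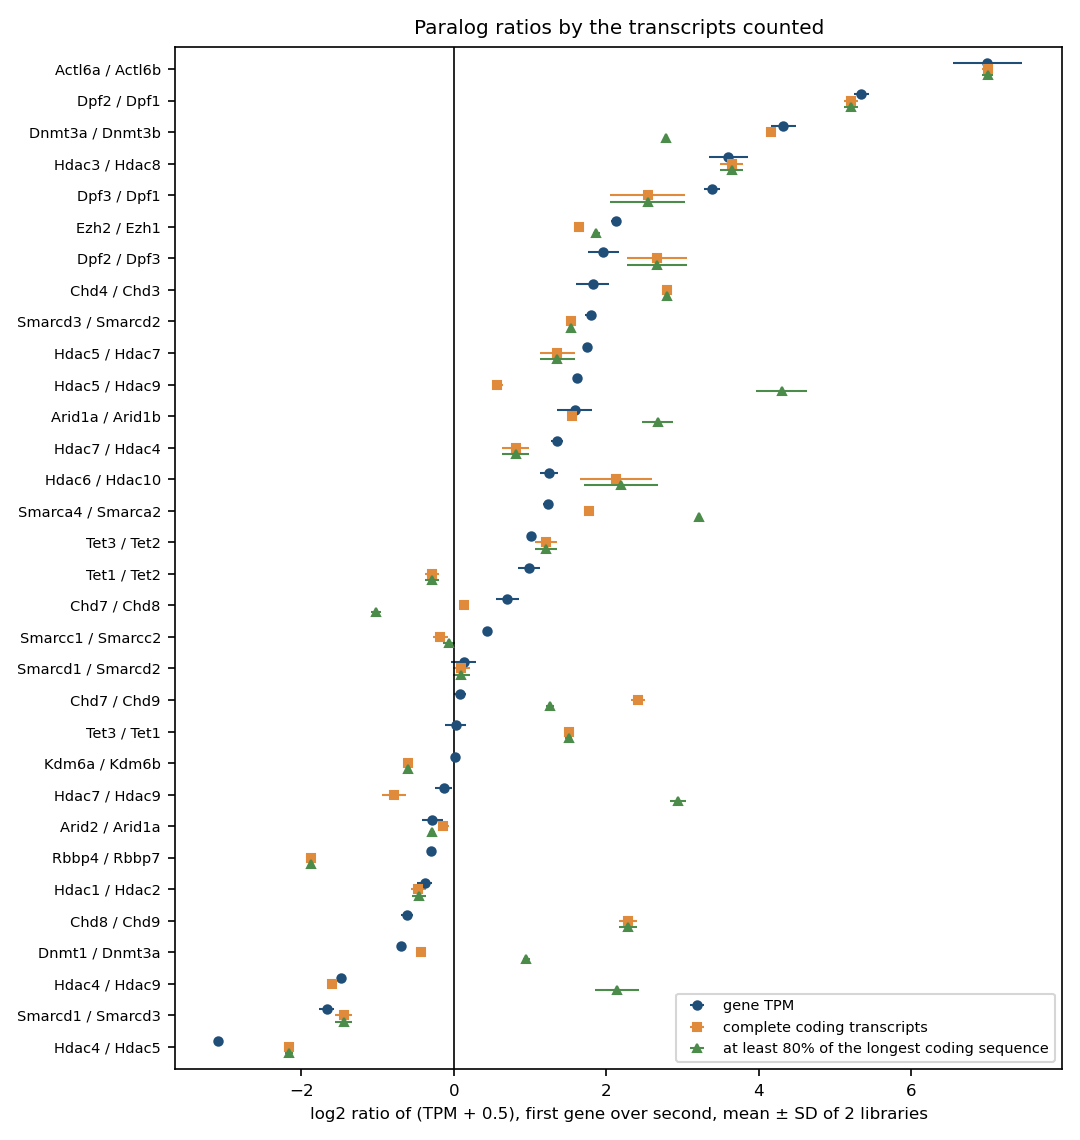
The log2 ratio of (TPM + 0.5) of the first gene over the second, as the mean (symbol) and SD (bar) of the 2 libraries, by gene TPM (circle), complete coding transcripts (square) and transcripts with at least 80% of the longest coding sequence (triangle). Most pairs stay on 1 side of 0, and the symbols part widely for Chd8 over Chd9, Hdac7 over Hdac9, Hdac4 over Hdac9 and Hdac5 over Hdac9; the value for Actl6a over Actl6b is set by the added 0.5 TPM.

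The partners of these proteins were read from 11 lists of 142 genes, of which 141 were matched and 122 detected; Ezhip was not matched. All 12 other BAF subunits were detected, from Actb at 4948 ± 30.9 TPM, Ss18 at 82.2 ± 0.226 and Bcl7c at 36.2 ± 3.56 down to Bicral at 3.76 ± 0.919 and Ss18l1 at 3.29 ± 0.0566. Ss18l1 is the neuronal paralog of Ss18, the low one of that pair. All 6 other PRC2 subunits were detected, led by Mtf2 at 56.7 ± 1.60 TPM, a Polycomb-like protein that recruits PRC2, with Epop at 1.78 ± 0.283 the lowest. All 20 PRC1 subunits, the complex that ubiquitinates H2A, were detected, with Yaf2 at 82.2 ± 0.834, Scmh1 at 75.0 ± 6.21 and the E3 ligase Rnf2 at 65.1 ± 0 TPM on top. Cbx7, a chromodomain reader known from embryonic stem cells, was the lowest PRC1 gene at 1.21 ± 0.163 TPM. All 14 genes of the H3K4 methyltransferase complexes were detected, with Dpy30 at 159 ± 0.764, Ash2l at 60.3 ± 1.17 and Kmt2e at 55.8 ± 2.21 TPM highest and Kmt2b at 3.91 ± 0.099 TPM lowest.

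All 8 NuRD subunits were detected. Mbd3, a subunit that does not bind methylated DNA strongly, stood at 139 ± 3.18 TPM, and its methyl-binding paralog Mbd2 at 5.76 ± 0.0566 TPM, the lowest of the list. Mta2 had 86.3 ± 4.43 TPM and Cdk2ap1 51.2 ± 4.60 TPM. Of 16 other CHD, ISWI and INO80 remodellers, 15 were detected, with Atrx at 111 ± 5.35, Smarca5 at 49.5 ± 1.94 and Srcap at 41.4 ± 1.53 TPM highest; Chd5, a neuronal NuRD ATPase, was listed at 0 in replicate 2 and 0.06 TPM in replicate 1. All 14 corepressor genes of histone deacetylases were detected, with Sin3b at 116 ± 2.62, Ncor1 at 107 ± 5.62 and Suds3 at 58.4 ± 0.643 TPM highest and Rcor1 at 7.05 ± 0.205 TPM lowest. All 7 sirtuins were detected, from Sirt2 at 37.3 ± 1.47 TPM down to Sirt1 at 3.69 ± 0.0354 TPM.

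Of 14 partners of the class IIa deacetylases, 13 were detected, including the 14-3-3 genes Ywhae at 666 ± 9.38, Ywhab at 211 ± 0.608 and Ywhag at 170.1 ± 4.99 TPM, whose proteins hold these enzymes in the cytoplasm. Of the MEF2 genes on that list, Mef2b was not detected, at 0 in replicate 2 and 0.07 TPM in replicate 1. The others were detected, with Mef2c at 95.5 ± 5.06, Mef2a at 77.6 ± 6.22 and Mef2d at 42.95 ± 1.56 TPM. Of 15 cofactors and readers of DNA methylation, 13 were detected, led by Idh2, a mitochondrial enzyme that makes alpha-ketoglutarate, the TET cosubstrate, at 1239.7 ± 16.1 TPM, Trim28 at 175 ± 4.20 and the glycosylase Tdg at 88.8 ± 1.05 TPM. The undetected ones were Dnmt3l, the germline partner of Dnmt3a, at 0 in replicate 2 and 0.04 TPM in replicate 1, and Dppa3, at 0.08 TPM in replicate 2 and 0 in replicate 1. None of the 15 germline genes, many of them known to be silenced by promoter methylation, reached 1 TPM in both libraries; after Ddx4, Tdrd1 had 0.725 ± 0.0495 and Slc25a31 0.49 ± 0.127 TPM, and Tex101 and Pou5f1 were listed at 0 in both.

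Promoter sequence was compared for the 44 of 52 genes with an entry in the RefSeq promoter table, which gave 57 windows of 300 bases. The median window of these genes held 26 CpG, against 7 over all 32851 promoters of the table, and the median GC content was 65.7%, against 52.7%. At least 15 CpG were present in 82.5% of the windows of these genes and in 34.6% of all. The promoters of the table cover 27025 gene symbols and were not limited to protein-coding or detected genes, here and for the motifs below. Whether these differences are particular to the genes described here was therefore not tested. The upstream Dnmt1 window printed above was among the CpG-poor ones. Motifs of the kind bound by E2F factors were searched on both strands as exact 8-base words; the 3 words share letters, and matches of different words may overlap. TTTCCCGC occurred in the windows of Arid1a, Brd7, Smarcd1 and Suz12 and in 1.07% of all promoters. TTTGGCGC occurred in Dnmt1 and Ezh2 and in 0.514% of all, and TTTCGCGC in Dnmt1, in the same window of the further start, and in Uhrf1 and in 0.323% of all. At least 1 word was present in 7 of the 57 windows, 12.3%, and in 1.84% of all promoters. Each word holds a CpG, in which the windows of these genes were richer, and the part of CpG content in this difference was not tested. A word match is a description of the sequence and says nothing of whether a factor binds there. Arid2, Chd3, Chd7, Hdac1, Hdac3, Hdac10, Kdm6b and Smarce1 had no entry.

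The replicates were then compared gene by gene with the exact binomial test on scaled counts, two-sided, with Benjamini-Hochberg adjustment over the 17970 genes whose counts summed to 20 or more. Of the 51 genes tested, 0 passed an adjusted p of 0.05 together with a log2 ratio of at least 1 in size, the background being 1.57% of all genes tested, and 15 had an unadjusted p under 0.05, as had 22.4% of all genes tested. At any fold, 9 of the 51 passed, 17.6%, against a background of 9.93%. Of these, 6 were higher in replicate 2, where 4.79% of all genes were, and 3 were lower in replicate 2, where 5.14% of all genes were. The genes described here had more counts than most, with a median summed count of 5514 against 1056 over all genes tested, so smaller differences could pass. The log2 ratio was under 0.25 in size for all 51 and for 76.0% of all genes tested.

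The 6 genes higher in replicate 2 came from 5 classes. By the exact binomial test, Tet3 had the smallest adjusted p (log2 ratio 0.17, 95% interval 0.10 to 0.24, adjusted p = 0.000106), followed by Tet1 (log2 ratio 0.18, 95% interval 0.09 to 0.27, adjusted p = 0.0026). By the same exact test, Kmt2d (log2 ratio 0.13, 95% interval 0.06 to 0.20, adjusted p = 0.00503), Chd7 (log2 ratio 0.11, 95% interval 0.05 to 0.18, adjusted p = 0.0152), Hdac9 (log2 ratio 0.14, 95% interval 0.05 to 0.23, adjusted p = 0.0383) and Pbrm1 (log2 ratio 0.07, 95% interval 0.03 to 0.12, adjusted p = 0.0178) were higher as well. By that exact test, the 3 lower in replicate 2 were Hdac2 (log2 ratio -0.12, 95% interval -0.17 to -0.07, adjusted p = 0.000218), Rbbp7 (log2 ratio -0.06, 95% interval -0.09 to -0.03, adjusted p = 0.00882) and Rbbp4 (log2 ratio -0.06, 95% interval -0.10 to -0.02, adjusted p = 0.0176). The 6 that were higher have effective lengths of 3342 to 19062 bases and the 3 that were lower of 1903 to 2047 bases. Transcript length moved with the same ratio over all protein-coding genes tested, whose median was -0.04 under 1000 bases and 0.05 at 6000 bases or more, with 33.6% and 67.1% of genes above 0. The part of length in the differences of these 9 genes was not tested. The hepatocyte markers moved more than any of them, 7 of 8 being lower in replicate 2 at a log2 ratio of at least 1 in size, and their part in the differences was not tested either. Over the 126 partner genes tested, 0 passed with a log2 ratio of at least 1 in size, as 1.57% of all genes tested did. At any fold 18 of the 126 passed, 13 higher and 5 lower in replicate 2. Of all genes tested 9.93% passed at any fold, 4.79% higher and 5.14% lower in replicate 2. The part of transcript length in the split of the partners was not tested.

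**Figure D5:**
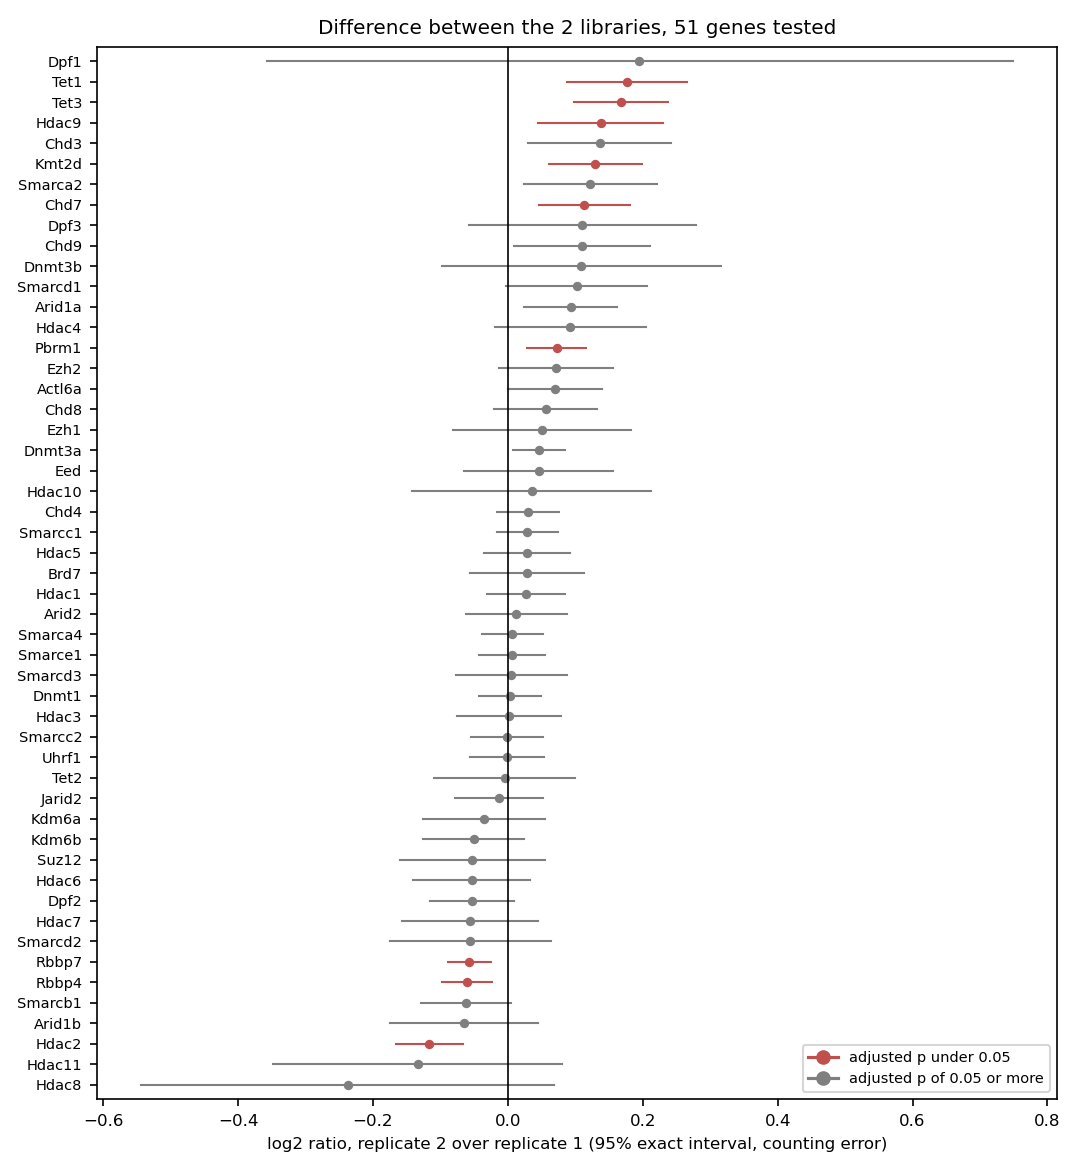
The log2 ratio of replicate 2 over replicate 1 for each of the 51 genes tested, with its exact 95% interval for counting error; red marks an adjusted p under 0.05. All points lie within 0.25 of 0, with Tet1, Tet3, Hdac9, Kmt2d, Chd7 and Pbrm1 in red at right and Hdac2, Rbbp4 and Rbbp7 in red at left.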

How the data were processed

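PolyA RNA-seq of E12.5 mouse heart was analysed from the gene and transcript tables of 2 libraries. The expected counts and TPM were deposited by the authors per gene and transcript, as estimates that share reads between transcripts, and the percent of a gene's TPM taken by each transcript was deposited beside them. Build mm10 and the GENCODE M21 and M4 annotations are per the labels and the text deposited with each library. Which aligner and counting tool were run, and whether strand was used, is not given in the sources used here. The posterior SD of the gene count is a deposited measure of how well reads could be assigned to a gene. It was at most 1% of the count in 51 of the 52 genes in both libraries and reached 1.95% in the other, Hdac11. It does not cover how reads were shared between transcripts of the same gene, where the SD can be larger, as for the shorter Dnmt1 form above. Rows with no gene name held 0.000117% and 0.000115% of the counts in replicates 2 and 1 and were left out, and ERCC rows were left out of library sizes.

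The genes, the paralog pairs and the partner lists were chosen with earlier results of these data known. The text names all 52 genes, and of each partner list up to the 3 genes with the highest and 2 with the lowest mean TPM. The MEF2 genes other than Mef2b are named in addition. Detection was at least 1 TPM in both libraries. Paralog ratios were log2 of (TPM + 0.5) within a library, and folds are 2 to the power of their mean, which understates the difference where a gene is low. No test was made on them. Libraries were compared on rounded expected counts by a two-sided binomial test, exact and conditional on each gene's total, with TMM scaling from edgeR 4.0.16 in R 4.3.3 and with scipy 1.17.1; it covers counting error between these libraries alone. The quasi-likelihood test of edgeR needs residual degrees of freedom that 2 libraries of 1 group do not give. The test was checked on simulated counts. Alternatives were DESeq2 1.42.0 size factors, library or ERCC totals, other minimum counts and thresholds, posterior mean TPM, other pseudocounts, unscaled expected counts and the M4 tables. Counting only complete coding transcripts, or those with at least 80% of the longest coding sequence, was chosen after seeing the data. Coding sequences were cut from the GENCODE M21 transcripts (GRCm38), and promoter windows came from RefSeq (GRCm38.p6). A gene from the partner lists that M21 did not hold is named only.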

Additional observations from a re-analysis of the deposited data

How the results depend on the processing

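No paired analysis was possible because the libraries form a single group. The counts kept within 1.5 times their reported value under each alternative run: 48 to 51 genes of the 52 detected, 110 to 124 partner genes detected, 0 genes past the fold threshold between libraries, 7 to 9 past an adjusted p of 0.05 at any fold, 21 to 23 paralog pairs with the first gene higher in both libraries, and the same leading transcript in 50 of 51 genes under M4 and 41 of the 43 genes of at least 10 TPM in both libraries. With ERCC totals, Pbrm1 and Hdac9 lost their call; with no minimum count and under M4, Hdac9 did. The exact test sees counting error alone, so it does not measure the spread between hearts.

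Among the pairs whose libraries agreed on the order, mean log2 ratios of 8 turned sign under some alternative, and the cause was not tested. Tet3 over Tet1, on which the libraries disagreed, is not among them and was -0.075 in replicate 2 alone and 0.12 in replicate 1 alone. Under M4, Kdm6a over Kdm6b was -0.34, Chd8 over Chd9 was 2.16 and Hdac7 over Hdac9 was 0.50. With expected counts not divided by length, Kdm6a over Kdm6b was -0.55 and Chd8 over Chd9 was 0.77. With complete coding transcripts, Smarcc1 over Smarcc2 was -0.18, Kdm6a over Kdm6b -0.61, Chd8 over Chd9 2.28 and Tet1 over Tet2 -0.29. With transcripts of at least 80% of the longest coding sequence, Smarcc1 over Smarcc2 was -0.065, Kdm6a over Kdm6b -0.61, Chd7 over Chd8 -1.02, Chd8 over Chd9 2.28, Hdac7 over Hdac9 2.95, Hdac4 over Hdac9 2.14, Dnmt1 over Dnmt3a 0.95 and Tet1 over Tet2 -0.29. Of the other values recomputed per pair and per gene, 249 stayed within the spread between libraries or kept their call. Another 103 moved beyond it without a change of sign and 4 lost their call. Part of the 249 could not have come out otherwise. A pair ratio from 1 library alone always lies within the SD of the 2 libraries. Limiting the pairs to genes of at least 1 TPM left the ratios of the remaining pairs unchanged.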
